A study of Saccharomyces cerevisiae and Saccharomyces paradoxus with 16 samples.

Results

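Cryptic unstable transcripts (CUTs) are short non-coding RNAs of yeast that are made by RNA polymerase II and degraded almost at once, so that they are seen clearly only when the nuclear exosome is impaired. The shortest of them, annotated at under 200 nt, are described here. They were selected on length alone, as every annotated CUT whose stop minus start was below 200 nt, and 1141 of the 9377 CUTs annotated in 4 yeast strains met this rule. S288c held 318 of 2055, Σ1278b (Sigma1278b in the sample names) 295 of 2393, JAY291 343 of 2268 and N17 185 of 2661.

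The exosome is the RNA-degrading complex of eukaryotic cells, and Rrp6 is its nuclear-specific exonuclease. In budding yeast most CUTs are terminated early by the Nrd1-Nab3-Sen1 complex, whose Nrd1 and Nab3 subunits recognise short RNA words, and the released transcript is given a short tail by the TRAMP complex and passed to the exosome. CUTs often begin in the nucleosome-depleted regions at the 5' and 3' ends of genes, running away from a promoter or antisense to a gene. In rrp6Δ cells they accumulate, and the annotation rests on that accumulation.

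S288c, Σ1278b and JAY291 are strains of Saccharomyces cerevisiae and N17 is a strain of Saccharomyces paradoxus. Each strain was sequenced as wild type (WT) and as rrp6Δ, with 2 libraries for each of the 8 groups and 16 libraries in all, from cells in mid-log growth in YPD at 30 °C. The S288c WT carried his3delta1, lys2delta0, leu2delta0 and ura3delta0, and its mutant carried rrp6::KanMX with his3delta1, leu2delta0, ura3delta0 and met15delta0. The Σ1278b WT carried ura3-52, leu2::hisG and his3::hisG, and its mutant carried rrp6::KanMX with his3delta1, leu2delta0 and ura3delta0. JAY291 differed by rrp6::KanMX alone, and both N17 groups carried HO::lox-Kan-lox, with rrp6::NatMX in the mutant. In the 3 S. cerevisiae strains replicate 1 was prepared with 1 round of Oligotex poly(A) selection and replicate 2 with 2 rounds of Dynabeads selection, whereas both N17 replicates (3 and 4) had the Dynabeads selection, so that species and preparation cannot be told apart in N17.

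Coverage is the authors' mean over the 2 replicates of the normalised reads per nucleotide across the CUT, so each CUT has 1 WT and 1 rrp6Δ value per strain, with no replicate error and with no read depth in the annotations. Length was set largely by the same comparison of rrp6Δ with WT that gives the coverage. Coverage is therefore given as a description, with no test. In S288c, Σ1278b and N17 no CUT carried the label chrXIII, and CUTs of chromosome XIII are listed under chrXII. This label held 58, 53 and 22 short CUTs in these strains, and positions under it were left out wherever a neighbour, a gene or a sequence was needed.

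Short CUTs made up 15.5% of the S288c annotation (95% Wilson interval 13.98 to 17.1%), 12.3% of that of Σ1278b (11.1 to 13.7%), 15.1% of that of JAY291 (13.7 to 16.7%) and 6.95% of that of N17 (6.05 to 7.98%). The interval of N17 lay below those of the other 3. These intervals cover counting error only. Short CUTs accounted for 4.61%, 3.40%, 4.33% and 1.84% of the annotated bases of S288c, Σ1278b, JAY291 and N17, and for 3.67%, 2.92%, 3.37% and 0.459% of the rrp6Δ signal summed over CUTs.

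**Figure D1:**
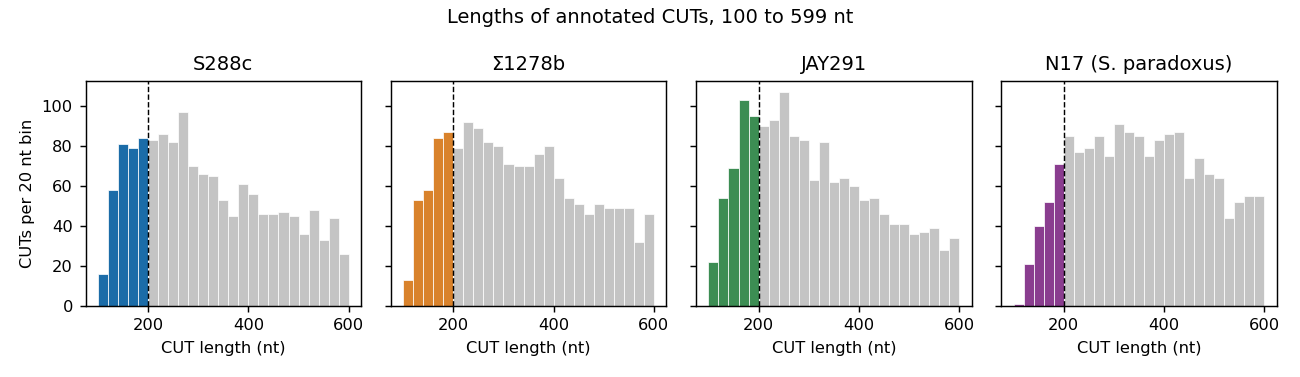
Number of CUTs per 20 nt bin of length (x axis, nt) in each strain annotation, with lengths under 200 nt coloured and a dashed line at 200 nt. The bin of 100 to 119 nt was the least filled of the short bins in all 4 strains, and N17 had 1 CUT in it against 16, 13 and 22 in S288c, Σ1278b and JAY291.

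Within the short class the lengths leaned towards its upper end, with a median of 160 nt in S288c, 167 nt in Σ1278b and JAY291 and 171 nt in N17. The 20 nt bin just below the limit (from 180 nt) held 84, 87, 95 and 71 CUTs, and the bin from 200 to 219 nt held 83, 79, 90 and 85. The limit thus fell on a smooth stretch of the length distribution and not in a gap between 2 populations. The shortest CUTs were CUT4470 of JAY291 at 100 nt and, at 101 nt, CUT5660 of JAY291 and CUT1003 and CUT731 of S288c, next to the minimum of 100 nt used in the annotation.

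Just inside the limit, the S288c CUTs CUT1959 and CUT1554 (199 nt) had rrp6Δ coverages of 40.1 and 10.2 and WT coverages of 11.96 and 1.23. Just outside it, CUT1677 and CUT608 (200 nt) had rrp6Δ coverages of 12.3 and 3.85 and WT coverages of 3.04 and 0.437. In Σ1278b CUT4114 and CUT3571 (199 nt) had rrp6Δ coverages of 19.1 and 8.40, and CUT4076 and CUT4004 (200 nt) had 17.3 and 15.2. In JAY291 the rrp6Δ values were 12.4 and 11.9 for CUT6013 and CUT5985 (199 nt), and 7.32 and 6.07 for CUT5525 and CUT5304 (200 nt). In N17 they were 3.14 and 1.95 for CUT7190 and CUT6767 (199 nt), and 16.99 and 9.40 for CUT8753 and CUT8318 (200 nt). Among these picks neither side of the limit was higher in every strain. They were the 2 of highest rrp6Δ coverage among the 3 to 7 CUTs of each length, and are examples only.

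S288c short CUTs of high rrp6Δ coverage outside the chrXII label are shown as sequences, because their coverage and gene positions are described next. Each is the strand of the CUT, 5' to 3', read from the RefSeq sequence of assembly R64, the build of the annotation. How starts are counted is not stated in the annotation and they were taken as counted from 0, so that under the other reading each CUT would begin 1 base earlier and be 1 nt longer. Capitals mark the DNA letters of the Nrd1 words (GTAA and GTAG) and the Nab3 words (TCTT and CTTG, which overlap in TCTTG).
CUT2003: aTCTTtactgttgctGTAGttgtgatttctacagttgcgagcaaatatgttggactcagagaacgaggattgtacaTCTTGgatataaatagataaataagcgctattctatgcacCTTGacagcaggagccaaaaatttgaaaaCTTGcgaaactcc
CUT1988: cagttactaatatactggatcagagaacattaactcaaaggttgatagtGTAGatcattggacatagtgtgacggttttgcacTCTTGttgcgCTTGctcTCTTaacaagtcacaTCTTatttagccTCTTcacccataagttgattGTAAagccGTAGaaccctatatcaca
CUT1959: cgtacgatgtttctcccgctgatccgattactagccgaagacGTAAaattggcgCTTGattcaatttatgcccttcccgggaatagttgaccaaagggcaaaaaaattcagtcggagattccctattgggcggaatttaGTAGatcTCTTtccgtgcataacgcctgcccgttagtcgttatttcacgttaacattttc
CUT1955: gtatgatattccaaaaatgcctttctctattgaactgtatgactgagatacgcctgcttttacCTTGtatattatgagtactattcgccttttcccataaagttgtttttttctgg
CUT1952: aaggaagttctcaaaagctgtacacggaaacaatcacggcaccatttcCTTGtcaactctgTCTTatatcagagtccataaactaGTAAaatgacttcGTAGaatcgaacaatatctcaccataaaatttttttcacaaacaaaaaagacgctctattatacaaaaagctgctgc
CUT1931: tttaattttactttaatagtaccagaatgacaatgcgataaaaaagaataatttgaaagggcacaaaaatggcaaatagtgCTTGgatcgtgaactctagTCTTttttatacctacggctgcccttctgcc
CUT1923: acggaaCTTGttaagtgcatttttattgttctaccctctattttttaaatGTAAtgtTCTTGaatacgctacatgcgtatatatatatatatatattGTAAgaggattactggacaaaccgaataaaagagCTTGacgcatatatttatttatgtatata

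CUT2003 (chrXI:571084-571241, minus strand, 158 nt) had a coverage of 169 in rrp6Δ and 5.14 in WT. The ratio of the 2 values with 1 added to each was 27.8, the highest of any S288c short CUT. It lies upstream of BET3, which encodes a subunit of the TRAPP vesicle-tethering complex, on the same strand and 174 bp from the BET3 start codon. On the other side, MET1, which acts in siroheme synthesis, runs in the opposite direction from 370 bp away. A CUT on the opposite strand overlaps CUT2003, and the sequence holds 6 marked words.

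CUT1988 (chrIV:765206-765378, minus strand, 173 nt) had the highest WT coverage of the S288c short CUTs, 32.5, and an rrp6Δ coverage of 82.9. It ends 50 bp before the start codon of CTH1, which encodes an RNA-binding protein of the response to low iron, on the same strand. Its sequence holds 9 marked words, the most of the 7 shown.

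CUT1959 (chrVII:993814-994012, minus strand, 199 nt) lies 292 bp upstream of RIE1 on the same strand, with coverages of 11.96 in WT and 40.1 in rrp6Δ. CUT1955 (chrVII:795867-795982, plus strand, 116 nt) lies between RSR1, which encodes a Ras-like GTPase of bud site selection, and YGR153W, with coverages of 4.82 and 37.9. CUT1952 (chrII:800042-800216, minus strand, 175 nt) overlaps the small gene TYC1 on its own strand and lies 306 bp upstream of MAL33, a regulator of maltose genes on the other strand, with coverages of 7.79 and 36.6. It was the 1 CUT of the 11 described here that touched a coding sequence.

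The other 6 had rrp6Δ coverages from 19.4 to 30.0 and WT coverages from 5.54 to 9.73. CUT1931 (chrIV:980816-980946) lies 515 bp from YDR261W-B and YDR261W-A, coding sequences of a retrotransposon, on the opposite strand. CUT1923 (chrX:497035-497194) lies between PET191, a cytochrome c oxidase assembly gene, and RAD26, a gene of transcription-coupled DNA repair. CUT1909 (chrVII:439757-439944) lies 118 bp from both RPL30, a ribosomal protein gene, and CGR1, a gene of ribosomal RNA processing. Gene ends here are those of the coding sequence, since untranslated regions were not used. CUT1890 (chrXV:414223-414401) starts beyond the 3' end of TOM6, a gene of the mitochondrial import complex on the same strand. It ends 57 bp from the 3' end of the mRNA export helicase gene DBP5. CUT1875 (chrIX:303457-303649) lies 29 bp past the 3' end of EMC5, a gene of the endoplasmic reticulum membrane complex, on the same strand. Whether it is separate from the EMC5 transcript was not tested. CUT1861 (chrIII:108801-108953) lies 9 bp from the 3' end of LDB16 and 151 bp from the start codon of PGS1, a gene of cardiolipin synthesis. CUT1875 had the lowest ratio of any S288c short CUT, 2.03.

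**Figure D2:**
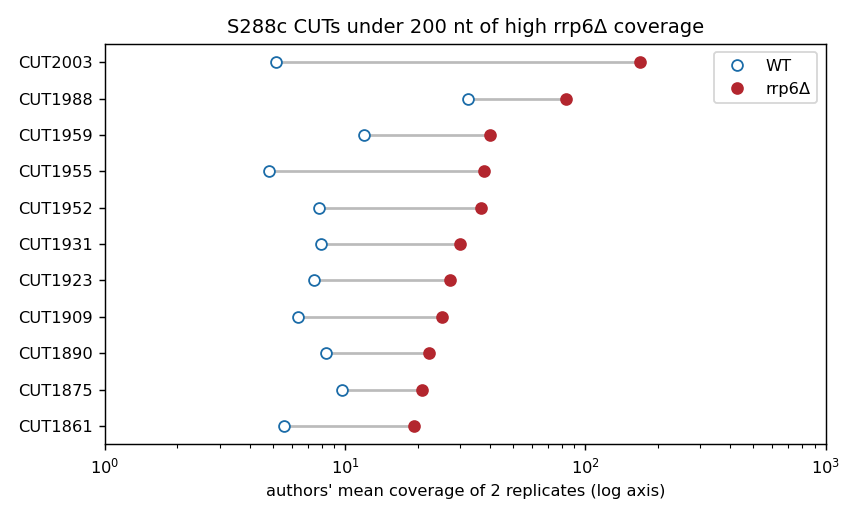
WT (open) and rrp6Δ (filled) coverage, on a log axis, of 11 S288c short CUTs outside the chrXII label with high rrp6Δ coverage, each point the authors' mean of 2 replicates. CUT2003 stands to the right of the rest at 169, while WT values run from 4.82 to 32.5.

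Among the 58 S288c short CUTs labelled chrXII, 6 lie beyond the end of chromosome XIII (924431) and so belong to chromosome XII. One of these, CUT1998 (chrXII:1002287-1002467, plus strand, 181 nt), was singled out after its values were seen. It had a coverage of 25.3 in WT and 138 in rrp6Δ. It ends 89 bp before the start codon of IMD3 (chrXII:1002557-1004128, plus strand), which encodes an IMP dehydrogenase of guanine nucleotide synthesis and belongs to a family whose transcripts are known to be attenuated by Nrd1 and Nab3. Its sequence is given with the same marking, and it holds 4 TCTT, 3 CTTG and neither Nrd1 word.
CUT1998: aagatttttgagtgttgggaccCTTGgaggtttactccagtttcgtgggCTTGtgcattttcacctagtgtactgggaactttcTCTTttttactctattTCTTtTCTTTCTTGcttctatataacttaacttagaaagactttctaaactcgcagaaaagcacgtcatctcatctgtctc

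CUT2007 (plus strand, 113 nt, from 362870 to 362982 under the chrXII label) had an rrp6Δ coverage of 291 against 20.2 in WT. At this position of chromosome XII the CUT would be antisense to REA1, a ribosome assembly gene, and at the same position of chromosome XIII it would lie in a Ty1 long terminal repeat. Which of the 2 holds is not given by the annotation. In the same way CUT731 would be antisense to GEP5 on chromosome XII or to MRPL3 on chromosome XIII.

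The highest rrp6Δ coverage of each other strain was above that of any S288c short CUT, while their next values were not all so. CUT4381 of Σ1278b (chrVIII:460822-461010, plus strand, 189 nt) had coverages of 490 in WT and 1082 in rrp6Δ. CUT4366 (chrX:57865-58052, minus strand) had 38.6 and 168. In JAY291 CUT6659 (109 nt) had 327 and 1067, CUT6653 (134 nt) 101 and 439, and CUT6652 (177 nt) 15.4 and 438. In N17 CUT9247 (164 nt, chrXII label) had 9.22 and 565, CUT9178 (115 nt, chrXVI:22652-22766) 6.55 and 148, and CUT9171 (193 nt, chrIV:757927-758119) 16.1 and 131. The coordinates are those of each strain's own genome, so whether any of these is the counterpart of an S288c CUT was not tested. Above an rrp6Δ coverage of 100 stood 4 members of S288c, 3 of Σ1278b, 9 of JAY291 and 3 of N17, which leaves nearly all short CUTs far below the values of the CUTs named here. In the top 5% of rrp6Δ coverage of its annotation lay 3.77% of the short CUTs of S288c (5.24% of longer CUTs) and 4.07% of those of Σ1278b (5.15%). The shares were 5.25% in JAY291 (4.94%) and 1.62% in N17 (5.25%).

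The typical short CUT was weakly covered. Among S288c, Σ1278b, JAY291 and N17, taken in this order here and below, its median rrp6Δ coverage was 4.99, 4.95, 6.88 and 4.89, against 5.64, 6.38, 7.64 and 6.76 for CUTs of 200 nt or more, and was lower in 4 of 4 strains. The quartiles of the short CUTs ran from 3.22 to 8.68, 3.46 to 8.08, 4.29 to 11.9 and 2.94 to 10.3, and overlapped those of the longer CUTs in each strain. Against CUTs of 200 to under 400 nt only, whose medians were 4.91, 5.77, 6.56 and 5.86, short CUTs were lower in Σ1278b and N17 and higher in S288c and JAY291.

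In WT the medians were 0.570, 0.418, 0.441 and 0.594 for short CUTs and 0.758, 0.692, 0.744 and 0.757 for the rest, lower in 4 of 4 strains. WT coverage was listed at 0 for 29 short CUTs of S288c (9.12%, 95% Wilson interval 6.42 to 12.8%), 22 of Σ1278b (7.46%, 4.98 to 11.0%), 47 of JAY291 (13.7%, 10.5 to 17.7%) and 30 of N17 (16.2%, 11.6 to 22.2%). The share among CUTs of 200 nt or more was 2.01%, 0.953%, 2.08% and 4.40%. A short CUT rests on fewer sequenced bases than a long one at the same coverage, and the part of this in the values listed at 0 was not tested. The rrp6Δ coverage of these members was low to moderate, with medians of 2.92, 3.15, 3.92 and 3.41 and a highest value of 20.3, in JAY291.

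The ratio of rrp6Δ to WT coverage, with 1 added to both mean coverages of a CUT (the annotation added 1 at each nucleotide), had medians of 3.48, 3.82, 4.70 and 3.22 for short CUTs, and of 3.30, 3.58, 4.25 and 3.55 for the rest. A ratio of 4 or more was found for 109 short CUTs of S288c (34.3%, against 31.7% of all S288c CUTs), 130 of Σ1278b (44.1%, against 41.1%), 242 of JAY291 (70.6%, against 57.5%) and 63 of N17 (34.1%, against 40.8%). Because the ratio at each nucleotide set the boundaries of the CUTs, nothing is read from these counts. The highest ratios were those of CUT2003 in S288c (27.8), CUT4275 in Σ1278b (31.2), CUT6652 in JAY291 (26.7) and CUT9247 in N17 (55.4). A ratio under 2 was found for 21 short CUTs of N17 and 1 of Σ1278b and for none of S288c or JAY291. This was not counted among longer CUTs, so it is not read as a trait of the short ones.

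Inside the short class, the median ratio was 4.04, 4.44, 5.16 and 4.52 for CUTs of under 150 nt in S288c, Σ1278b, JAY291 and N17, and 3.28, 3.54, 4.47 and 3.17 for those of 150 to under 200 nt. The median rrp6Δ coverage was likewise 5.36, 6.07, 8.21 and 7.04 for the former and 4.68, 4.70, 6.52 and 4.28 for the latter. Both orders held in 4 of 4 strains, for 115, 94, 107 and 47 CUTs of under 150 nt, and are descriptions of values that the annotation itself used.

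**Figure D3:**
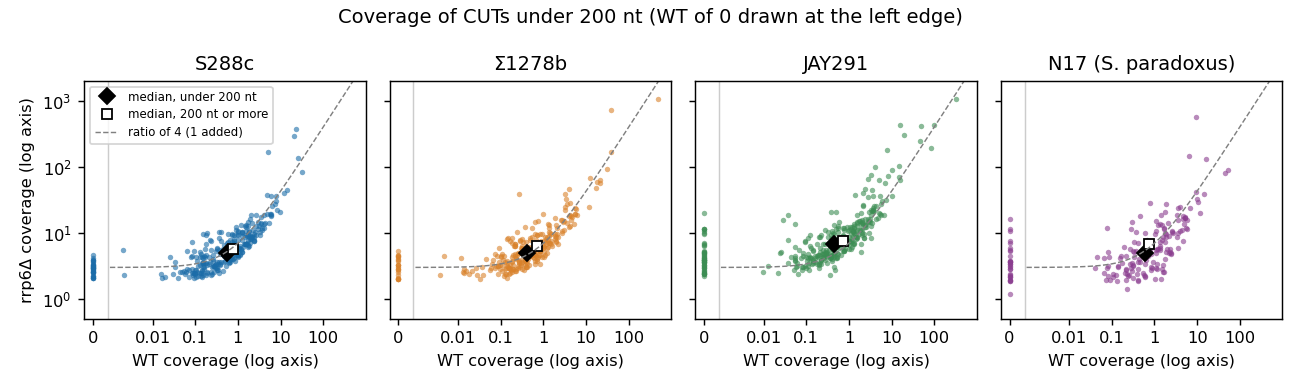
rrp6Δ coverage (y) against WT coverage (x) of each short CUT in the 4 strains, both on log axes, with WT values of 0 drawn at the left edge. Filled diamonds are medians of the short CUTs and open squares those of CUTs of 200 nt or more, the dashed curve marks a ratio of 4 with 1 added to both values, and in every panel the diamond lies below and to the left of the square.

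Strand was not used to choose the short CUTs. Strand and CUTs on the opposite strand were compared over the 4 strains with an exact two-sided sign-flip permutation test. The second of these measures depends on length, as described below. The smallest p that 4 strains allow is 0.13, so that no result could pass 0.05. The strains share ancestry and are not replicates of a condition. Short CUTs lay on the plus strand for 151 of the 318 of S288c (47.5%), 154 of the 295 of Σ1278b (52.2%), 172 of the 343 of JAY291 (50.1%) and 99 of the 185 of N17 (53.5%), against 48.9%, 52.1%, 49.7% and 47.7% of the longer CUTs. The mean difference was 1.23 percentage points (SD 3.13, n = 4 strains, exact permutation p = 0.625, also after adjustment over the 3 measures), higher in 3 of 4 strains and lower in S288c.

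Distance to a neighbour is not independent of length, since regions within 450 bp were merged into a single longer CUT, and is given without a test. The median distance from edge to edge to the nearest other CUT on either strand was 1752, 1309, 1357 and 1513 bp for short CUTs, against 1626, 1203, 1270 and 990 bp for the rest. It was larger in 4 of 4 strains, by a mean of 211 bp (SD 209, n = 4). The N17 difference of 523 bp was the largest, and without N17 the mean difference was 107 bp. Not every strain kept this direction under other settings, though 3 of 4 did in each of those that follow. S288c was at -21 bp against CUTs of 200 to under 400 nt, and also with the chrXII label kept. N17 was at -280.5 bp with a limit of 150 nt. Measured between midpoints, the mean difference became -110 bp, with a smaller distance for short CUTs in 3 of 4 strains, so the direction depended on how distance was measured. In JAY291, whose genome is in contigs, 16 short CUTs had no other CUT on their contig.

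Measured from the edges, fewer short CUTs had a partner on the opposite strand. A longer CUT reaches further, so this share is not independent of length and nothing is read from its test. A CUT on the opposite strand lay within 500 bp of 49 of 260 short CUTs of S288c (18.8%), 52 of 242 of Σ1278b (21.5%), 59 of 343 of JAY291 (17.2%) and 38 of 163 of N17 (23.3%), against 19.7%, 25.3%, 24.5% and 32.7% of the others. The mean difference was -5.33 percentage points (SD 3.79, n = 4, exact permutation p = 0.13, adjusted p = 0.19), lower in 4 of 4 strains. Between midpoints the mean difference was 0.54 percentage points, higher in 3 of 4 strains, so here too the direction rested on measuring from the edges. An opposite-strand CUT overlapped 19 short CUTs of S288c (7.31%), 20 of Σ1278b (8.26%), 24 of JAY291 (6.997%) and 13 of N17 (7.98%). The shares among CUTs of 200 nt or more were 9.63%, 12.1%, 12% and 16.9%. Overlap too is not independent of length, and this difference was not tested. The overlapping partner was longer than the short CUT in 17, 20, 24 and 13 of the overlapped short CUTs. The median partner length was 494, 475, 817 and 419 nt. Most CUTs of each annotation were of 200 nt or more, so a longer partner was largely fixed in advance.

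**Figure D4:**
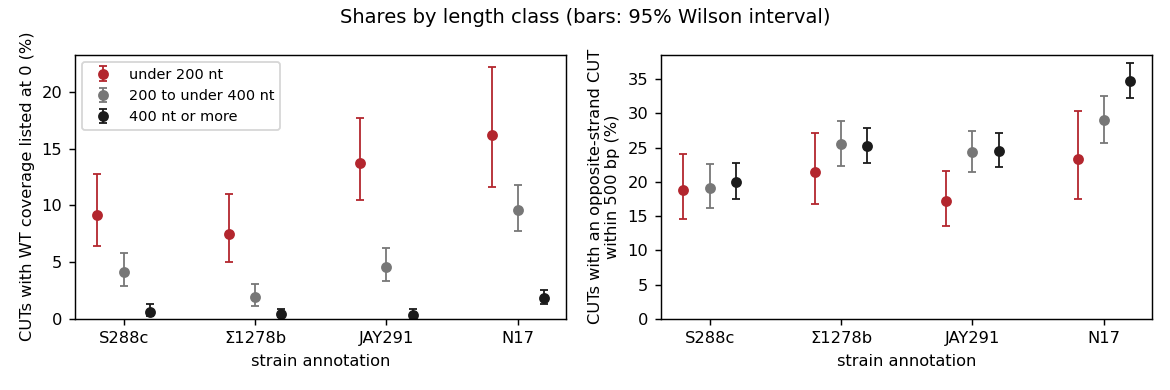
Percentage of CUTs whose WT coverage was listed at 0 (left) and with a CUT on the opposite strand within 500 bp (right), by strain and length class, with bars for the 95% Wilson interval. The share listed at 0 was highest under 200 nt in each strain, 7.46 to 16.2%, and the share with an opposite-strand CUT was lowest under 200 nt in each strain.

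In 2 places of S288c both overlapping CUTs were short. One was the promoter of PGK1, the phosphoglycerate kinase gene of glycolysis (chrIII:137746-138996, plus strand). CUT764 (chrIII:137492-137689, plus strand, 198 nt) ran towards the gene and ended 56 bp before its start codon, and CUT288 (chrIII:137371-137522, minus strand, 152 nt) ran away from it. Their rrp6Δ coverages were 4.47 and 2.85 and their WT coverages 0.459 and 0.161. Another short CUT, CUT923 (chrIII:138941-139086, minus strand, 146 nt, 5.16 in rrp6Δ and 0.456 in WT), overlapped the 3' end of the PGK1 coding sequence in antisense. The other place was upstream of RPL34B, a ribosomal protein gene, where CUT1638 (chrIX:257571-257700, minus strand, 130 nt) had coverages of 11.5 in rrp6Δ and 2.92 in WT and CUT474 (chrIX:257660-257841, plus strand, 182 nt) had 3.43 and 0.152.

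The S288c annotation allowed each CUT outside the chrXII label to be set against the genes of assembly R64. Of 260 short CUTs, 137 (52.7%, 95% Wilson interval 46.6 to 58.7%) overlapped no coding sequence, 110 (42.3%) overlapped one on the opposite strand only and 13 one on their own strand. Among CUTs of 200 nt or more these shares were 29.3%, 62.7% and 7.99% in the same order. Against CUTs of 200 to under 400 nt, of which 44.8% overlapped no coding sequence, the difference was 7.91 percentage points. When at least 50% of the CUT had to be covered, the shares free of coding sequence were 61.5% and 45.1%. A shorter interval has less room to touch a gene, and this part of the difference was not tested separately.

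Short CUTs free of coding sequence had a median rrp6Δ coverage of 6.25 and those antisense to one 4.31, with WT medians of 0.760 and 0.368. The same order held among CUTs of 200 nt or more, at 7.01 and 5.03 in rrp6Δ. With 1 strain and no replicate values these are descriptions.

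**Figure D5:**
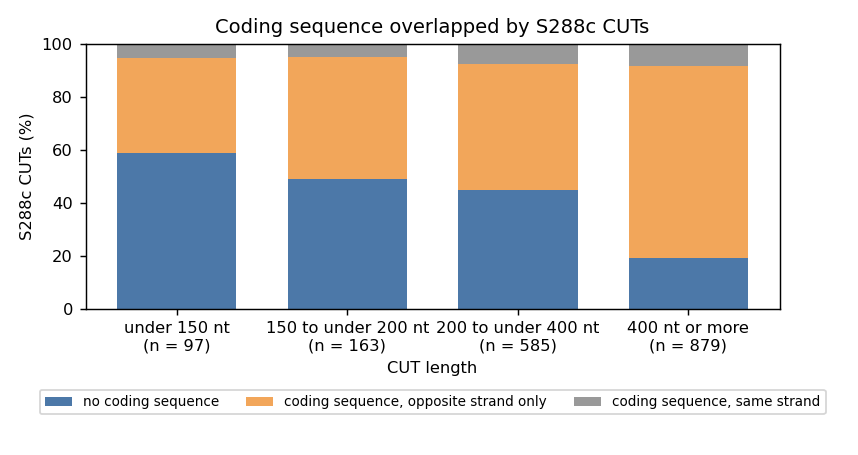
Percentage of S288c CUTs outside the chrXII label that overlap no coding sequence, a coding sequence on the opposite strand only, or one on the same strand, in 4 classes of length. The share with no coding sequence was 58.8% at under 150 nt, 49.1% at 150 to under 200 nt, 44.8% at 200 to under 400 nt and 19.0% at 400 nt or more.

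Relative to promoters, 79 short CUTs (30.4%) lay within 600 bp upstream of a start codon on their own strand, as did 30.4% of longer CUTs. On the opposite strand the number was 143 (55.0%), against 68.6% of longer CUTs and 56.9% of those of 200 to under 400 nt. Within 300 bp the shares on the opposite strand were 25.4% and 46.4%. Where a short CUT started within 600 bp upstream of a start codon on the opposite strand (135 CUTs), its 5' end lay a median of 333 bp from that codon (quartiles 251 and 422), against 282 bp for the longer CUTs. A further position described for CUTs is the 3' end of genes. The 5' end of 98 short CUTs (37.7%) lay from 200 bp before to 300 bp past the stop codon of a gene on the opposite strand, against 48.6% of longer CUTs and 36.8% of those of 200 to under 400 nt.

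Other annotated features were rare at short and at longer CUTs. A tRNA gene was overlapped by 4 of the 260 (1.54%, against 1.78% of longer CUTs) and a long terminal repeat or retrotransposon by 8 (3.08%, against 2.19%). A snoRNA or snRNA gene on the same strand was overlapped by none, and by 2 of the 1464 longer CUTs. The authors had removed regions at such genes, so this near absence was largely fixed in advance. Within 20 kb of a chromosome end lay 9 short CUTs (3.46%), against 2.73% of the rest. By chromosome, short CUTs made up from 9.28% of the CUTs of chromosome VIII to 23.9% of those of chromosome IX. CUT1224 (chrXV:722460-722651, minus strand, 6.85 in rrp6Δ and 1.47 in WT) lies over HIS3 in antisense, a gene that both S288c genotypes carry as his3delta1, and was singled out for that reason after the genotypes were compared with the members.

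Genes of 5 lists were compared with the short CUTs, outside chromosomes XII and XIII. All protein-coding genes gave the background, with 332 of 5016 (6.62%) having a short CUT within 600 bp upstream, over the coding sequence or in an intron. Of 16 glycolytic genes 3 had one (18.8%), namely PGK1, TDH3 and TPI1. CUT738 (chrVII:883895-884079, minus strand, 185 nt) ended 84 bp before the start codon of TDH3, the glyceraldehyde-3-phosphate dehydrogenase gene, with coverages of 4.37 in rrp6Δ and 0.172 in WT. CUT951 (chrIV:556515-556690, minus strand, 176 nt) ended 42 bp before that of TPI1, the triose phosphate isomerase gene, with 5.28 and 0.435. These 2 CUTs and CUT764 thus each ran towards a glycolytic gene on its own strand and ended within 84 bp of the start codon. In all, 5 of the 260 short CUTs met this list (1.92%), and so did 10 of the 1464 longer CUTs (0.683%). Upstream on the same strand lay 3 of these short CUTs and 4 of the longer ones, so the position was not particular to short CUTs.

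Of 110 cytosolic ribosomal protein genes 9 had a short CUT (8.18%), through 10 CUTs (3.85% of the short CUTs), while 34 of the 1464 longer CUTs met this list (2.32%). Among the 10 were CUT1855 near RPL3 (chrXV:444059-444249, minus strand, 19.0 in rrp6Δ and 2.04 in WT), CUT1638 near RPL34B and CUT1589 near RPL26B (chrVII:555226-555364, plus strand, 10.6 and 1.79). None of the 10 histone genes, of 20 genes of RNA surveillance (exosome, TRAMP and Nrd1-Nab3-Sen1 subunits) or of 7 genes regulated by Nrd1 and Nab3 had a short CUT outside these chromosomes, while 5, 11 and 10 of the 1464 longer CUTs met these lists (0.342%, 0.751% and 0.683%). CUT1998 at IMD3, on chromosome XII, is the exception. The counts are small and are given as descriptions.

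The Nrd1 and Nab3 words were counted in all 260 S288c short CUTs outside the chrXII label. In the first 100 bases a Nrd1 word (GTAA or GTAG) was found on the CUT strand in 66.5% and in the last 100 bases in 58.5%, against 49.3% of all 100-base windows tiled over both strands of the same 14 chromosomes. On the other strand of the CUT the shares were 54.2% and 47.7%. A Nab3 word (TCTT or CTTG) was found on the CUT strand in 71.2% of first and 75.8% of last windows, against 61.6% of all windows, and on the other strand in 56.9% and 54.6%. Both words of these short RNAs were thus more frequent on the transcribed strand than on the other. In a CUT of under 200 nt the first and last windows overlap, so that they are not separate sequence.

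CUTs of 200 nt or more showed similar shares, with a Nrd1 word in 59.4% of first and 62.7% of last windows and a Nab3 word in 67.6% and 73.0%. GTAG on the CUT strand was in 41.5% of the first windows of short CUTs, 32.2% of those of longer CUTs and 22.9% of all windows, but in the last windows it was in 33.1% of short and 35.2% of longer CUTs. Taken over the whole short CUT, 176 of 260 held both a Nrd1 and a Nab3 word, 58 held no Nrd1 word, 35 no Nab3 word and 9 none of the 4 words, with a median of 4 words per CUT. The 7 sequences printed above for high coverages held from 1 to 9, and CUT1955 held 1. GC content was a mean of 37.4% in short CUTs and 38.7% in longer ones, against 38.3% in all windows. A match of letters is not a binding site.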

How the data were processed

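Strand-specific poly(A) RNA-seq libraries of WT and rrp6Δ cells of 4 strains were analysed from the CUT annotations that the authors deposited. Reads of rRNA were first filtered out by the authors, who aligned what remained to the genome of each strain with Bowtie 0.12.7, keeping unique hits with up to 2 mismatches, and computed coverage with BEDTools 2.16.2, so reads of repeated sequence are missing from the values. The deposited coverage signal is their mean per nucleotide over a CUT, corrected for first-nucleotide bias and mappability, scaled by the authors to the number of mapped reads and averaged over the 2 replicates. Regions raised in rrp6Δ were called with a hidden Markov model, merged within 450 bp, and dropped if weakly covered or under 100 nt. The authors also removed regions at snRNA, snoRNA and rRNA genes and those due to differences in genotype. Where annotations did not match across the strains, they edited some by hand. They also restored filtered CUTs of a strain when the other strains all had the CUT. The annotations used here give means over replicates, with no depth or read counts. A deposited fold change column, the authors' own comparison, was not used.

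The 8 coverage columns were read for all CUTs, and starts, whose counting the annotations do not state, were taken as counted from 0 because coverage times stop minus start gave sums with few decimals more often than with 1 added, and are printed counted from 1. Ratios had 1 added to both values. Medians, quartiles and 95% Wilson intervals were computed with Python 3.11.15, NumPy 2.4.6 and pandas 2.3.3, and figures drawn with matplotlib 3.10.9. Differences over the 4 strains in strand and in opposite-strand CUTs were tested with an exact sign-flip permutation test, adjusted over 3 measures (Benjamini-Hochberg), neighbour distance included. Gene and sequence comparisons used the RefSeq copy of assembly R64 (sacCer3), the build of the S288c annotation, and 100-base windows. Functions were checked with 13 tests on planted data, all of which passed. The members and gene lists were chosen with earlier results of these data known. Named CUTs are, per strain, the 3 of highest rrp6Δ coverage, the 2 shortest and the 2 on each side of 200 nt, with ties ordered by rrp6Δ coverage, and in S288c the 12 of highest rrp6Δ coverage outside the chrXII label and those at listed genes (the 4 of highest rrp6Δ coverage where a list had more than 6), with sequences of the first 8. Some CUTs that these rules would name are not reported here. The shortest 2 and those at the limit are examples among others of the same length. Alternatives changed the length limit, the comparison class, the coverage filter, the chrXII label, the added value, the distance, the overlap and the windows, and left out each strain.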

Additional observations from a re-analysis of the deposited data

Results flagged for a closer look

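The ratio of rrp6Δ to WT coverage had another direction in N17 than in the other 3 strains. The median of short CUTs minus that of CUTs of 200 nt or more, on the log2 scale with 1 added to both coverages, was 0.08 in S288c, 0.09 in Σ1278b and 0.14 in JAY291, and -0.14 in N17. It caught attention because the 3 S. cerevisiae strains lie on one side of 0 and the S. paradoxus strain on the other. S. paradoxus is represented by 1 strain, each value rests on averaged replicates, and the difference was not tested. The split depended on the length limit. With a limit of 150 nt all 4 strains were above 0, N17 highest at 0.36, and with a limit of 250 nt S288c was at -0.022, on the side of N17 (-0.16). Among CUTs of under 150 nt the median ratio of N17 was 4.52, above its 3.17 at 150 to under 200 nt. A ratio under 2 was found for 21 of its 185 short CUTs, a count not made for its longer CUTs and not read as a trait. The lower quartile of the ratio in N17 was 2.56 for short CUTs and 2.57 for CUTs of 200 nt or more. N17 also differed from the other strains in its poly(A) selection, which cannot be told apart from species.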

How the results depend on the processing

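Each value below is the mean over strains of short minus other CUTs, or for S288c the difference in shares. Of 81 alternatives, 65 kept the direction and stayed within the spread over strains or the interval of the reported value, and no test over strains could pass 0.05 under any of them. The rrp6Δ difference (-0.25 log2) was 0.031 with a limit of 150 nt and -0.082 against CUTs of 200 to under 400 nt. The WT difference (-0.21) was -0.14 against CUTs of 200 to under 400 nt and -0.48 with 0.1 added in place of 1. The ratio difference (0.04) was 0.31 with a limit of 150 nt, -0.023 with a limit of 250 nt and 0.27 with 0.1 added. The plus strand difference (1.23 percentage points) was -1.40 with a limit of 150 nt, -0.034 against 200 to under 400 nt and -0.28 without N17. Midpoint distances gave -110 bp and 0.54 percentage points with an opposite-strand CUT (exact permutation p = 0.5). A midpoint lies farther from the edge in a longer CUT. The share of S288c short CUTs free of coding sequence exceeded that of the others by 23.4 percentage points, by 7.91 against 200 to under 400 nt and by 16.5 with 50% overlap. The share upstream of an opposite-strand gene was lower by 13.6 percentage points (-13.6), with -1.92 against 200 to under 400 nt and -21.0 within 300 bp. The cause of these changes was not tested. Leaving out each strain in turn was chosen after seeing the data. No paired analysis was possible because the annotations used here hold the authors' mean over replicates, and no replicate could be left out for the same reason. Depth per library was not used here, and the reads behind a WT value of 0 are not given by the annotations.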

Other observations

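Position within the contigs was looked at in JAY291, whose genome is the least assembled of the 4. Its 2268 CUTs lay on 322 contigs and its 343 short CUTs on 185, with at most 8 on one contig. Of the 343 short CUTs 13 started within 200 bp of a contig start, as did 65 of the 1925 CUTs of 200 nt or more. Contig ends were not counted, and nothing is read from these counts.

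CUTs on the same strand were merged by the authors when closer than 450 bp. Even so, 1 short CUT of S288c, none of Σ1278b, 2 of JAY291 and 1 of N17 lay within 450 bp of another CUT on the same strand, as did 20, 43, 42 and 22 of the CUTs of 200 nt or more. Same-strand neighbours within 1000 bp were found for 15.4%, 17.8%, 19.2% and 11.7% of short CUTs in S288c, Σ1278b, JAY291 and N17, against 15.5%, 20.9%, 18.7% and 16.3% of longer CUTs.

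WT and rrp6Δ coverage rose together among the short CUTs. Spearman's rho across CUTs was 0.84 (318 CUTs of S288c), 0.80 (295 of Σ1278b), 0.78 (343 of JAY291) and 0.64 (185 of N17). Every CUT was called because its rrp6Δ coverage exceeded that of WT, so a positive rho was largely fixed in advance. No rho was computed for longer CUTs. The CUTs of a strain share its libraries and are not independent replicates, so these values are descriptions.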
